A study of Mus musculus with 13 samples.

Results

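The 10 genes described here belong to the unfolded protein response of the endoplasmic reticulum (ER): Hspa5, Manf, Ddit3, Xbp1, Atf4, Hsp90b1, Pdia4, Sdf2l1, Dnajb9 and Creld2. They are 10 of the 46679 gene IDs in the deposited tables, and each symbol matched 1 gene ID. They were chosen from measured values of these libraries, in which genes of this response had been lower in tumor-bearing lung than in normal lung. That contrast is therefore given as a description, with no test. The mammary tumors were compared with both kinds of lung by test, and both of these comparisons share lung libraries with the contrast behind the choice.

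RNA of mammary tumors and lungs was sequenced to ask what a mammary tumor at a distance changes in the lung. All mice were female, of strain FVB and 10 weeks old. The 3 mammary tumors came from mice 6877, 6880 and 6881, each given 250000 Met1 cells in the mammary fat pad at 8 weeks of age and killed 2 weeks later, and all 3 libraries were prepared in batch 2. The 4 tumor-bearing lungs came from mice with the same injection, mice 6879, 6880 and 6881 in preparation batch 1 and mouse 6877 in batch 2, and the 4 normal lungs came from mice 6886, 6887, 6888 and 6893 without a tumor, all in batch 2, with 6886 and 6888 also in batch 1. Met1 is 1 transplanted line of mouse mammary tumor cells, so a tumor library holds these cells together with whatever host cells had entered the tumor.

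The unfolded protein response is the set of programs that a cell starts when unfolded proteins gather in the ER. The membrane sensors IRE1, PERK and ATF6 start it, and they act through the transcription factors XBP1, ATF4 and cleaved ATF6, which raise chaperones, folding enzymes and degradation factors of the ER, while CHOP is made when the stress lasts. In the lung the response is best known from cells with a heavy secretory load, such as alveolar type 2 cells and plasma cells, and in tumors from fast growth and poor supply of oxygen and nutrients.

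Libraries held 8321037 to 13982903 estimated counts, and the members had between 34 estimated counts (Sdf2l1) and 7130 (Hsp90b1) in a library. The share of protein-coding genes was 68.2 to 69.6% in normal batch 1 lungs and 45.6 to 59.0% elsewhere, and Rn7s1, the small RNA that guides secretory proteins to the ER as part of the signal recognition particle, made up 5.55 to 37.8%. Marker genes matched the tissue labels. Summed over 10 markers of alveolar type 2 cells, tumors had 202 to 325 CPM (estimated counts scaled to a common library size, with TMM factors), tumor-bearing lungs 6674 to 15441 CPM and normal lungs 10375 to 16174 CPM. Summed over 6 cycling genes, tumors had 561 to 632 CPM, tumor-bearing lungs 24.7 to 33.6 CPM and normal lungs 18.1 to 36.5 CPM, and over 13 mammary epithelial markers, of which the milk genes Wap and Lalba were at 0 in some lung groups, tumors had 1109 to 1471 CPM, tumor-bearing lungs 492 to 718 CPM and normal lungs 562 to 856 CPM. The part of cell composition and of cycling in the results was not tested. In bulk RNA, fewer cells of a type and less RNA per cell cannot be told apart.

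Promoter sequences were set beside the members because several of them carry the ER stress response element (ERSE), the sequence through which ATF6 and XBP1 act together with NF-Y. RefSeq promoters, of 250 bases before to 50 after the start site on GRCm38.p6, matched 9 of the 10 members, all but Manf. The ERSE letters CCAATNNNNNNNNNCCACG, searched on both strands, stood in 39 of 32851 RefSeq promoters (0.119%), and in 3 of the 9 members, Hspa5, Hsp90b1 and Creld2. Hsp90b1 held 2 copies. The elements are shown in the motif's own direction, 5′ to 3′, with the fixed letters in capitals, named by their distance in bases from the start site.
Hspa5, -65 to -47: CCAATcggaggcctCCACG
Hsp90b1, -212 to -194: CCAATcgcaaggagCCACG
Hsp90b1, -107 to -89, other strand: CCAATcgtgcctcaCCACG
Creld2, -126 to -108, other strand: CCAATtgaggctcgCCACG
The whole promoters show where these elements lie in each of the 3 genes. That of Hspa5 is chr2:34771840-34772139 on the plus strand, that of Hsp90b1 chr10:86705395-86705694 on the minus strand and that of Creld2 chr15:88819396-88819695 on the plus strand, each read 5′ to 3′ along its gene with the fixed ERSE letters, or their complement on the other strand, in capitals.
Hspa5: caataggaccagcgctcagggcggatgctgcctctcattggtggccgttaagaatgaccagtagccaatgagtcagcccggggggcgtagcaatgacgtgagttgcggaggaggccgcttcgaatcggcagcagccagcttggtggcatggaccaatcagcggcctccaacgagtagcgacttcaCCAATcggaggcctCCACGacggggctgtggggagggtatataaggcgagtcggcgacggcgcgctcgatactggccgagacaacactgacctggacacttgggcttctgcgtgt
Hsp90b1: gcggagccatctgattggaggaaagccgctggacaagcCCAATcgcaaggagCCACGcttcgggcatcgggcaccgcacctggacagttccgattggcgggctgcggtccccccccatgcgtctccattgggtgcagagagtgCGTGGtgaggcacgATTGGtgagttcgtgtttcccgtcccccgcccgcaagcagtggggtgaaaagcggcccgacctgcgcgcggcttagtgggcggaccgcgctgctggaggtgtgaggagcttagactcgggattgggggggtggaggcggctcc
Creld2: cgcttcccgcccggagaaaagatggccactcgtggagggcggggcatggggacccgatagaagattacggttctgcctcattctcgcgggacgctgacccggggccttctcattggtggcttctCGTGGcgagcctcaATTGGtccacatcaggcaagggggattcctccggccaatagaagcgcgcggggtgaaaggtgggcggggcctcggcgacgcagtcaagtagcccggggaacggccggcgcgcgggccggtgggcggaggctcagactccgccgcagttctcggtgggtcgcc
The ERSE-II letters ATTGGNCCACG (0.0365% of all promoters), the XBP1 element UPRE with TGACGTGG (0.676%) and the ATF4 element CARE with TGATGNAAT (0.965%), each searched on both strands, matched 0 of the 9 member promoters. The CCAAT letters alone, which the ERSE and, in reverse, the ERSE-II include, stood in 8 of the 9 and in 37.4% of all promoters, and CCACG alone in 7 of the 9 and in 32.8%. A match is a description of the letters in this window.

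The mammary tumors were first compared with the normal lungs of the same preparation batch, 3 tumors with 4 lungs of other mice. Tumors had more RNA of most ER-resident members and less of Ddit3 and Dnajb9. Of the 10 members 7 were higher and 2 lower past an adjusted p of 0.05 (edgeR quasi-likelihood test, Benjamini-Hochberg over 18038 genes), and Xbp1 was not called. The tissues differ widely, since 56.8% of all genes tested passed the same threshold, 29.4% higher and 27.4% lower in tumors, so the count of called members stands against a high background. The median log2 fold change was 0.70 over the members and -0.02 over all genes tested. This comparison shares its normal mice with the contrast that chose the members. Genes chosen as high in these normal lungs tend to come out lower in tumors. Its calls, those of Ddit3 and Dnajb9 above all, are thus not independent of the choice.

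**Figure D1:**
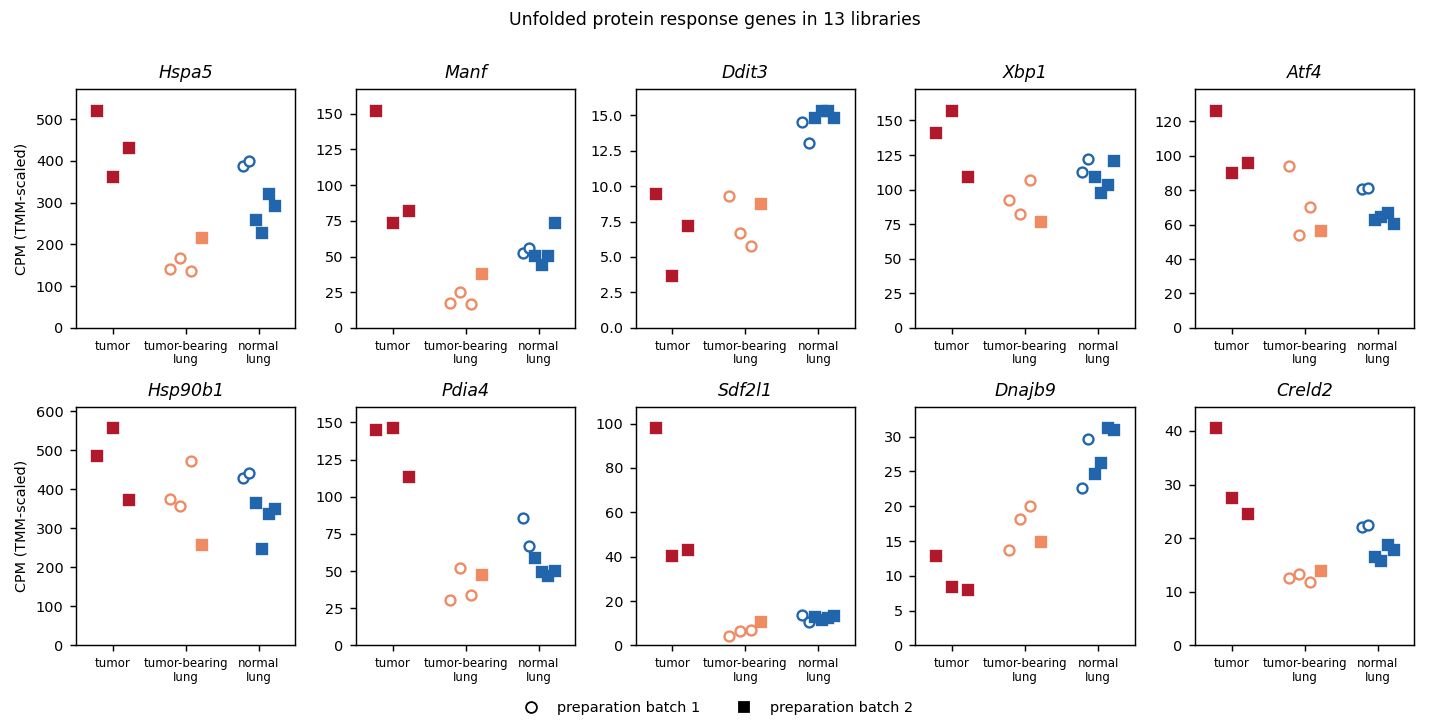
CPM of each member (vertical axis, from 0) in the 13 libraries, by group (horizontal axis); open circles are preparation batch 1, filled squares batch 2, and normal mice 6886 and 6888 appear in both. Sdf2l1 lies at 40.5 to 97.9 CPM in tumors, 4.23 to 10.4 in tumor-bearing lungs and 10.7 to 13.7 in normal lungs, whereas Ddit3 and Dnajb9 are lower in tumors and tumor-bearing lungs than in normal lungs.

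Hspa5, which encodes BiP, the main HSP70-type chaperone of the ER lumen and the one that holds the sensors inactive, lies at chr2:34771970-34777547 (GRCm38). Its level was 520.0, 361 and 431 CPM in the tumors of mice 6877, 6880 and 6881, against 258, 227, 320.5 and 291 CPM in the batch 2 lungs of normal mice 6886, 6887, 6888 and 6893. The 2 groups did not overlap. Tumors averaged 437 ± 79.9 CPM (SD, n = 3) and these normal lungs 274 ± 40.5 CPM (SD, n = 4). The log2 fold change was 0.68 (SE 0.19, edgeR adjusted p = 0.0113). The normal lungs of batch 1, at 389 and 400.1 CPM, lay within the range of the tumors, and Hspa5 was not called when 11 libraries of both batches were fitted with a batch term (log2 fold change 0.46, edgeR adjusted p = 0.193).

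Sdf2l1, a partner of BiP and of the J-domain protein Dnajb11 in the ER lumen (chr16:17130138-17132383), had the largest rise of the 10. Tumors had 97.9, 40.5 and 43.0 CPM, against 13, 11.3, 12.4 and 13.1 CPM in normal lungs. Every tumor stood at least 3 times above every normal lung, and the tumor of mouse 6877 was more than 2 times above the other tumors. The log2 fold change was 2.28 (SE 0.29, edgeR adjusted p = 0.000153), and lay between 1.73 and 2.5 when any 1 library was left out.

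Pdia4, the disulfide isomerase ERp72 (chr6:47796141-47813430), had 145, 146 and 113 CPM in tumors and 58.7, 49.4, 46.4 and 50.0 CPM in normal lungs, again without overlap. It rose by a log2 fold change of 1.41 (SE 0.15, edgeR adjusted p = 4.22e-05). Creld2, a small ER protein with EGF-like domains that is known as an ATF6 target (chr15:88819646-88826683), rose by 0.85 (SE 0.19, edgeR adjusted p = 0.00355), with 40.5, 27.5 and 24.6 CPM in tumors and 16.4, 15.7, 18.8 and 17.8 CPM in normal lungs. Both stayed past the threshold in all 16 alternatives.

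Manf, an ER protein that binds BiP and can be secreted as a trophic factor (chr9:106838312-106891979), had 152, 73.6 and 82.1 CPM in tumors and 50.1, 43.9, 50.3 and 73.2 CPM in normal lungs. The lowest tumor and the highest normal lung nearly touched. The log2 fold change was 0.92 (SE 0.27, edgeR adjusted p = 0.0159), and the call was lost without the tumor of mouse 6877 (0.50, adjusted p = 0.0829) and in the fit of 11 libraries of both batches (0.61, adjusted p = 0.163). The gene model of Manf overlaps Rbm15b on the same strand, which makes its counts uncertain; Rbm15b had 37.5 ± 3.35 CPM in tumors (SD, n = 3) and 59.4 ± 7.18 CPM in normal lungs (SD, n = 4).

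Hsp90b1, the HSP90 of the ER lumen known as GRP94 (chr10:86690209-86705509), had 485, 556 and 373 CPM in tumors and 365, 246, 336 and 349.9 CPM in normal lungs. The lowest tumor lay just above the highest of these normal lungs, but below the normal lungs of batch 1, at 429 and 440.5 CPM. Its log2 fold change of 0.55 (SE 0.20, edgeR adjusted p = 0.0399) was the smallest of those called, and the call was lost in 12 of 16 alternatives, among them each of the 6 that left out a library other than the tumor of mouse 6881.

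Dnajb9, or ERdj4, a J-domain partner of BiP that hands clients to degradation and restrains IRE1 (chr12:44205559-44210326), went the other way from the chaperones it works with. Tumors had 12.8, 8.43 and 8.03 CPM, against 24.6, 26.2, 31.2 and 31.0 CPM in normal lungs. Every tumor was below every normal lung by close to a factor of 2 or more, and the log2 fold change was -1.53 (SE 0.20, edgeR adjusted p = 0.000194). It was past the threshold in all 16 alternatives.

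Among the transcription factors, Atf4 (chr15:80255184-80257541), which is translated when the kinases of the integrated stress response slow general translation, rose, Ddit3 fell and Xbp1 was not called. Atf4 RNA had 126, 89.8 and 95.5 CPM in tumors and 62.7, 64.4, 66.6 and 60.4 CPM in normal lungs. It rose by a log2 fold change of 0.72 (SE 0.15, edgeR adjusted p = 0.00241). Ddit3, which encodes CHOP, the factor tied to cell death under lasting stress (chr10:127290774-127296288), had 9.46, 3.67 and 7.17 CPM in tumors and 14.8, 15.3, 15.3 and 14.8 CPM in normal lungs. The normal lungs were almost alike and all lay above the tumors, with a log2 fold change of -1.16 (SE 0.29, edgeR adjusted p = 0.00717). Ddit3 overlaps Mars on the other strand, whose mean was 37.8 CPM in tumors and 22.7 CPM in normal lungs, and whether counting used the strand is not given in the sources used here.

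Xbp1 (chr11:5520659-5525893), whose RNA IRE1 splices into the form that makes the active factor, had 141, 157 and 109 CPM in tumors and 109, 97.4, 103 and 121 CPM in normal lungs. The groups overlapped, and the log2 fold change was 0.34 (SE 0.16, edgeR adjusted p = 0.0932). It passed the threshold in 1 of 16 alternatives, without the tumor of mouse 6881 (0.47, adjusted p = 0.0262). The tables count whole genes, so the spliced and the unspliced form of Xbp1 are not separated, and for Atf4 the RNA says nothing of its translation.

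**Figure D2:**
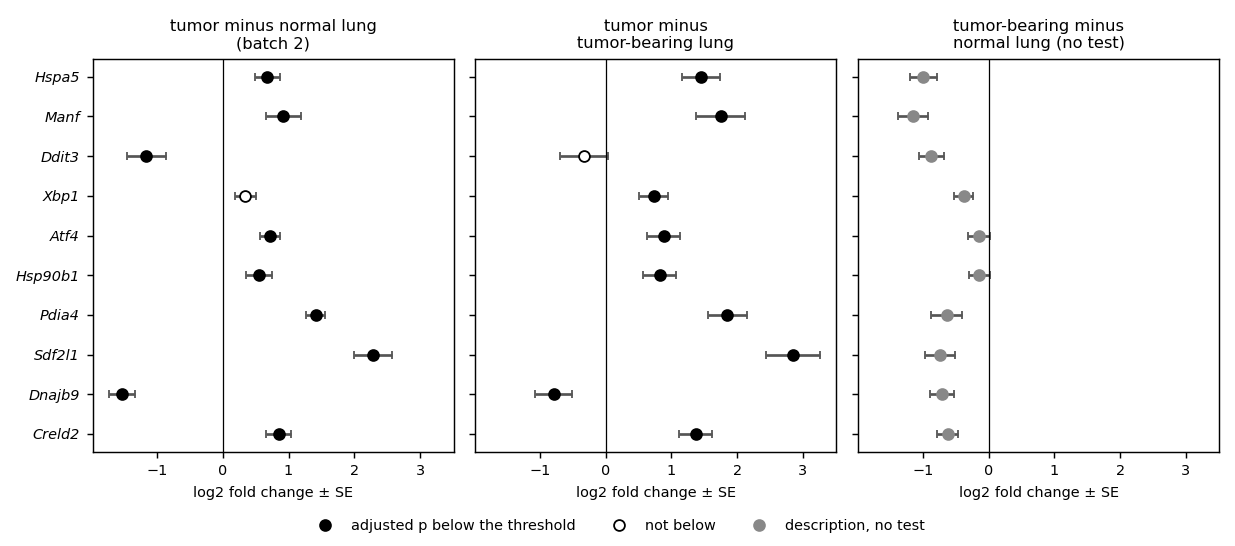
Log2 fold change (horizontal axis) with its standard error for each member in 3 comparisons; filled black points passed an adjusted p of 0.05, open points did not, and grey points carry no test because this contrast chose the genes. Sdf2l1 has the largest difference in both tumor comparisons (2.28 and 2.85), Dnajb9 and Ddit3 lie left of 0 in all 3, and every grey point lies left of 0.

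The tumors were next set against the tumor-bearing lungs, which come from mice with the same tumor. Tumors again had more RNA of the ER chaperones. Of the 10 members 8 were higher and 1 lower past an adjusted p of 0.05 in a fit of 11 libraries with preparation batch as a term, and Ddit3 was not called. Of all 18297 genes tested 46.3% passed, 22.6% higher and 23.7% lower. The median log2 fold change was 1.12 over the members and -0.10 over all genes. In this comparison 3 of the 4 tumor-bearing lungs were prepared in batch 1 and all tumors in batch 2. It therefore leans on the normal lungs for the batch term, and it shares its lungs with the contrast that chose the members. Genes chosen as low in these lungs tend to come out higher in tumors. The counts, the median and the adjusted p of this comparison are thus no independent support. The difference between the 2 tumor comparisons was not tested.

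The tumor and lung of mouse 6877 were prepared in the same batch and give values free of the batch term. Hspa5 had 520.0 CPM in that tumor and 215 CPM in that lung, a log2 difference of 1.27. In mice 6880 and 6881, whose lungs were prepared in batch 1, the difference was 1.11 (361 against 167 CPM) and 1.66 (431 against 136 CPM). Tumor was above lung in each of the 3 mice, and the fitted log2 fold change was 1.45 (SE 0.29, edgeR adjusted p = 0.00173).

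Manf and Sdf2l1 showed the same order in every mouse. Manf had 152, 73.6 and 82.1 CPM in the tumors of mice 6877, 6880 and 6881 and 37.8, 25.5 and 16.5 CPM in their lungs, and rose by a log2 fold change of 1.75 (SE 0.37, edgeR adjusted p = 0.00223). Sdf2l1 had 97.9, 40.5 and 43.0 CPM in these tumors and 10.4, 6.56 and 6.81 CPM in these lungs. Its log2 fold change was 2.85 (SE 0.41, edgeR adjusted p = 0.000168), and the log2 difference within a mouse was 3.21, 2.59 and 2.63.

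Pdia4 rose by 1.85 (SE 0.30, edgeR adjusted p = 0.000355) and Creld2 by 1.37 (SE 0.25, edgeR adjusted p = 0.000872). No tumor-bearing lung, with 30.7 to 52.3 CPM of Pdia4 and 11.9 to 13.8 CPM of Creld2, reached the lowest tumor, at 113 and 24.6 CPM. Hspa5, Manf, Pdia4, Sdf2l1 and Creld2 were past the threshold in all 23 alternatives run for this comparison.

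The remaining differences were smaller. Atf4 rose by 0.88 (SE 0.25, edgeR adjusted p = 0.0121) although the lung of mouse 6879, at 94.0 CPM, lay above the tumor of mouse 6880, at 89.8 CPM. Xbp1 rose by 0.73 (SE 0.22, edgeR adjusted p = 0.0161), and all tumors, at 109 to 157 CPM, were above all tumor-bearing lungs, at 76.8 to 107 CPM. Hsp90b1 rose by 0.82 (SE 0.25, edgeR adjusted p = 0.0174), yet in mouse 6881 the tumor, at 373 CPM, was below the lung, at 472 CPM. Without the lung of mouse 6877, the only tumor-bearing lung of batch 2, the log2 fold changes were 0.89 for Atf4, 0.63 for Xbp1, 0.76 for Hsp90b1 and -0.99 for Dnajb9, close to those with it or further from 0, but these 4 were no longer called (adjusted p of 0.0618 to 0.122). The other 5 called members were still called, with Hspa5 at 2.15 in place of 1.45.

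Dnajb9 was lower in tumors than in tumor-bearing lungs as well, with 12.8, 8.43 and 8.03 CPM in tumors and 13.7, 18.2, 20.1 and 14.8 CPM in the lungs of mice 6879, 6880, 6881 and 6877. The log2 fold change was -0.79 (SE 0.28, edgeR adjusted p = 0.0368), and the call was lost in 16 of 23 alternatives. With the mouse fitted as a block, a fit that pairs tumor and lung of a mouse and holds 10 libraries, leaving out mice with 1 library, Dnajb9 had -0.79 (adjusted p = 0.0567) and Hsp90b1 0.67 (adjusted p = 0.0856), both no longer called, and 7 members were called. Ddit3 had 3.67 to 9.46 CPM in tumors and 5.80 to 9.32 CPM in tumor-bearing lungs, which overlapped (log2 fold change -0.33, SE 0.36, edgeR adjusted p = 0.485).

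In the tumor-bearing lungs all 10 members had a log2 fold change below 0 against normal lung, from -1.15 for Manf to -0.14 for Hsp90b1, as the choice of genes would have it. The fit held 8 lungs, with 1 library per mouse and preparation batch as a term, and the median was -0.67 over the members and 0.01 over all 16727 genes tested. These values chose the members and carry no test. The members nearest to 0 were Atf4 at -0.15 and Hsp90b1 at -0.14; no threshold was set for it.

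Within batch 1, with 3 tumor-bearing and 2 normal lungs, Hspa5 had 142, 167 and 136 CPM in tumor-bearing lungs and 389 and 400.1 CPM in normal lungs. Within batch 2 it had 215 CPM in the 1 tumor-bearing lung and 258, 227, 320.5 and 291 CPM in normal lungs. Tumor-bearing lungs were lower in both batches, by a log2 difference of -1.38 in batch 1 and -0.34 in batch 2. Manf had 17.2, 25.5 and 16.5 CPM in tumor-bearing lungs and 52.2 and 55.7 CPM in normal lungs of batch 1, and 37.8 CPM in the tumor-bearing lung and 43.9 to 73.2 CPM in normal lungs of batch 2. Its log2 difference was -1.42 in batch 1 and -0.52 in batch 2.

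How far the batches agreed varied among the members. Ddit3 (-0.90 in batch 1 and -0.79 in batch 2), Dnajb9 (-0.56 and -0.93), Xbp1 (-0.30 and -0.48), Atf4 (-0.14 and -0.17) and Hsp90b1 (-0.09 and -0.33) differed less between the batches than the other members. Hspa5, Manf, Pdia4 (-0.95 and -0.10), Sdf2l1 (-1.03 and -0.25) and Creld2 (-0.79 and -0.31) were further below 0 in batch 1. All 10 members were below 0 in each batch, with a median of -0.85 in batch 1 and -0.33 in batch 2, where a single tumor-bearing lung stands for its group; the difference between batches was not tested.

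In batch 1 every tumor-bearing lung was below every normal lung for 8 members, all but Atf4 and Hsp90b1, and 20.8% of all genes showed this. In batch 2 the tumor-bearing lung was below all 4 normal lungs for 8 members, all but Hsp90b1 and Pdia4, and 23.9% of all genes did. Over all 10 lung libraries Hspa5, Manf, Ddit3, Sdf2l1, Dnajb9 and Creld2 did not overlap, and 2.03% of all genes lay below in this way. These counts describe the genes as chosen. Ddit3 had 5.80 to 9.32 CPM in tumor-bearing lungs and 13 to 15.3 CPM in normal lungs, and Dnajb9 had 13.7 to 20.1 CPM in tumor-bearing lungs and 22.6 to 31.2 CPM in normal lungs.

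**Figure D3:**
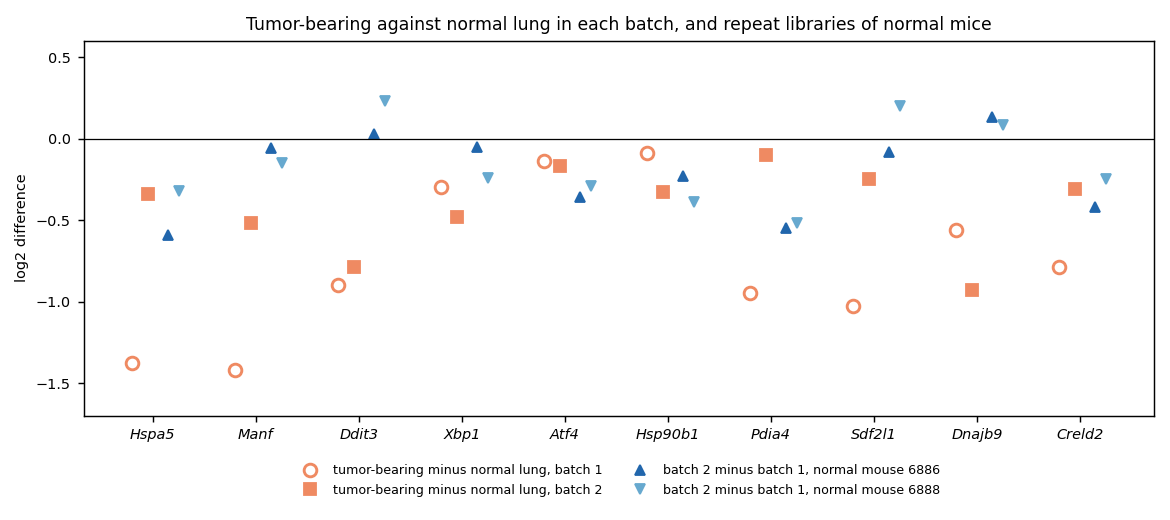
Log2 difference (vertical axis) of tumor-bearing minus normal lung for each member in preparation batch 1 (open circles) and batch 2 (squares), beside the difference between the batch 2 and the batch 1 library of the same normal mouse (triangles). Hspa5 lies at -1.38 in batch 1 and -0.34 in batch 2, and its repeat libraries differ by -0.59 and -0.32.

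Normal mice 6886 and 6888, each prepared in both batches, show how far preparation moves a member when the animal is the same. The log2 difference of batch 2 minus batch 1 ranged from -0.59 to 0.13 over the members in mouse 6886 (median -0.15) and from -0.52 to 0.23 in mouse 6888 (median -0.24), against medians of -0.01 and -0.02 over all genes. Lower in batch 2 in both mice were 7 members, namely Hspa5 (-0.59 and -0.32), Pdia4 (-0.55 and -0.52), Creld2 (-0.42 and -0.25), Atf4 (-0.36 and -0.29), Hsp90b1 (-0.23 and -0.39), Manf (-0.06 and -0.15) and Xbp1 (-0.05 and -0.24). Ddit3 (0.03 and 0.23) and Dnajb9 (0.13 and 0.08) were above 0 in both mice, and Sdf2l1 had -0.08 and 0.20. When the batch 2 libraries of these mice took the place of those of batch 1, Hspa5 had a fitted difference between tumor-bearing and normal lung of -0.34 in place of -0.99, Manf -0.51 in place of -1.15, and Ddit3 -0.78 in place of -0.87. With this exchange batch 1 holds no normal lung, so the value rests on the tumor-bearing lung of mouse 6877.

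Other measures also differed between tumor-bearing and normal lungs, not all of them in both batches. The alveolar type 2 and endothelial sums of the batch 2 tumor-bearing lung lay within the range of its normal lungs. In batch 1 the share of protein-coding genes was 49.0 to 59.0% for tumor-bearing and 68.2 to 69.6% for normal lungs, and in batch 2 it was 45.6% for the tumor-bearing lung and 47.0 to 54.7% for normal lungs. For the 10 alveolar type 2 markers the sum in batch 1 was 6674 to 8407 CPM for tumor-bearing and 10375 to 11669 CPM for normal lungs, and in batch 2 it was 15441 CPM for the tumor-bearing lung and 13836 to 16174 CPM for normal lungs. For the 7 endothelial markers it was 1932 to 2453 CPM for tumor-bearing and 2681 to 3076 CPM for normal lungs of batch 1, against 1404 CPM for the tumor-bearing and 1394 to 1604 CPM for the normal lungs of batch 2. The 10 plasma cell markers, of a cell type with a large ER, summed to 201 to 206 CPM in the tumor-bearing lungs of both batches and 146 to 189.8 CPM in the normal lungs. The 6 neutrophil markers summed to 59.9 to 141 CPM in tumor-bearing and 14.5 to 16.3 CPM in normal lungs of batch 1. In batch 2 they summed to 154 CPM in the tumor-bearing lung and 20.1 to 76.4 CPM in normal lungs. Ly6g was at 0 in the tumor-bearing lungs. The 6 fibroblast markers summed to 2009 to 2799 CPM in tumor-bearing and 1309 to 2140.1 CPM in normal lungs of batch 1. In batch 2 the sums were 938 CPM in the tumor-bearing lung and 660.0 to 815 CPM in normal lungs. No alveolar type 2, endothelial, fibroblast or plasma cell marker was at 0 in all libraries of a group. The part of these in the members' differences was not tested.

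The scale matters for this contrast. In fits of log2 TPM, where TPM carry the share of abundant small RNAs, the median of all genes moved by over 0.1, to -0.54 with a pseudocount of 0.1 and -0.23 with a pseudocount of 1, and the members' medians were -1.28 and -0.87. The members' median thus lay below that of all genes by a similar amount in the count fit and in both TPM fits. With TPM rescaled to equal protein-coding totals, Hsp90b1 and Atf4 were higher on average in tumor-bearing lungs of batch 1 (1420.2 and 105) than in normal lungs of batch 1 (1311 and 100.2). The other members were lower.

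Levels between members were compared per length, as TPM rescaled so that protein-coding genes sum to the same total in each library. Hsp90b1 led in every group, with 1018 ± 307 in tumors (SD, n = 3), 1246 ± 380.2 in tumor-bearing lungs (SD, n = 4) and 866 ± 151 in batch 2 normal lungs (SD, n = 4). Hspa5 came next, with 388 ± 15.9, 229.7 ± 27.8 and 308 ± 51.8 in the same groups and n. In each group every library had more Hsp90b1 than any library had Hspa5. Below Hspa5 the order differed between tissues, and in normal lungs Hspa5 and Manf (179 ± 49.4) already overlapped.

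In tumors Manf (258 ± 59.2) followed Hspa5, Pdia4 (149 ± 31.8) and Xbp1 (129.8 ± 36.3) overlapped, as did Atf4 (89.7 ± 2.00) and Sdf2l1 (85.8 ± 29.9), and Creld2 (37.0 ± 4.86), Ddit3 (16.2 ± 4.81) and Dnajb9 (10.3 ± 1.16) came last, the last 2 overlapping. In tumor-bearing lungs Xbp1 (134 ± 29.3), Manf (96.5 ± 28.9), Atf4 (95.3 ± 31.8) and Pdia4 (70.5 ± 18.2) overlapped along this order. Sdf2l1 had the lowest mean in tumor-bearing lungs (16.0 ± 4.03) and in normal lungs (23.3 ± 2.09), below Ddit3 (29.6 ± 6.64 and 46.7 ± 1.73) and Dnajb9 (28.4 ± 6.69 and 38.2 ± 5.69). Sdf2l1 and Dnajb9 thus traded places between lung and tumor. The means of tumor-bearing lungs hold 3 lungs of batch 1, so they are no comparison with the tumors or with these normal lungs, all of batch 2. Within batch 2 the tumor mean was above the 1 tumor-bearing lung for Hsp90b1 (1018 and 722), Xbp1 (129.8 and 95.4) and Atf4 (89.7 and 64.9). Ddit3 (16.2 and 28.2) and Dnajb9 (10.3 and 20.9) were lower in tumors. Against the normal lungs of batch 2 Hsp90b1, Manf and Xbp1 overlapped on this scale. Hsp90b1 had 833 to 1372 in tumors and 646 to 982 in normal lungs. Manf, which did not overlap in CPM, had 222 to 326 in tumors and 141 to 251 in normal lungs. Xbp1 had 108 to 172 and 113 to 150.2. There the means were 129.8 and 128 for Xbp1 and 89.7 and 69.5 for Atf4.

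**Figure D4:**
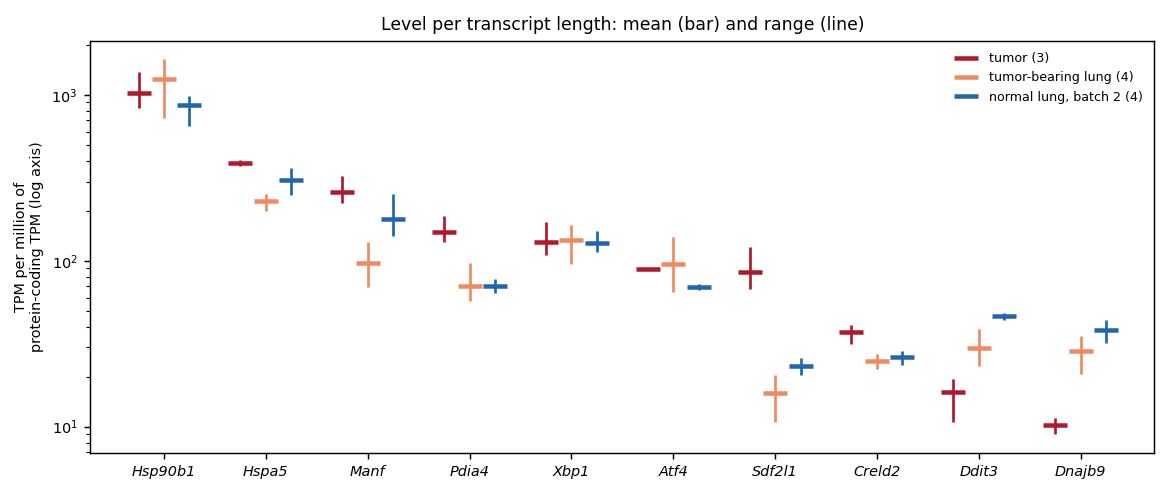
Level of each member per length, as TPM rescaled to equal protein-coding totals (vertical log axis), in 3 tumors, 4 tumor-bearing lungs and 4 normal lungs of batch 2; bars are means and lines run from the lowest to the highest library. Hsp90b1 is first in all groups, and Sdf2l1 and Dnajb9 change places between tumors (85.8 and 10.3) and normal lungs (23.3 and 38.2). Of the 4 tumor-bearing lungs 3 are of batch 1.

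The members varied together to different degrees among libraries of the same group and batch. Over 12 libraries, each taken as its difference from the mean of its group in its batch, 39 of 45 pairs of members had a Pearson r above 0, with a median of 0.27. The highest value was that of Hsp90b1 with Xbp1 (0.87). Creld2 went with Manf (0.80), Sdf2l1 (0.77), Hspa5 (0.75) and Dnajb9 (0.71), Hspa5 with Manf (0.79), and Atf4 with Ddit3 (0.66). Taken over all other members, the medians ran from 0.11 for Atf4 to 0.55 for Hspa5, with 0.15 for Xbp1 and 0.13 for Hsp90b1, whose high value was with each other. These libraries share their scaling factors, and mice 6886 and 6888 enter in both batches, so the values are a description.

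Across the 10 lung libraries, with the mean of each batch removed, Creld2 was the gene most like Hspa5 of 9113 ranked (Pearson r = 0.99), Manf was number 31 (0.95) and Sdf2l1 number 288 (0.89). Atf4 (0.29) and Hsp90b1 (0.35) were far down. The 8 most similar genes outside the members were Aldh2, a mitochondrial aldehyde dehydrogenase, Jdp2, a bZIP factor, Calr, the ER lectin chaperone calreticulin, P4ha1, a collagen prolyl hydroxylase of the ER, Ahsa1 and Stip1, co-chaperones of cytosolic HSP90, Crip2 and Emsy, each with an r of 0.97 to 0.98. All of these points share the difference between tumor-bearing and normal lung that chose the members, and 2 mice stand in both batches. High ranks of members thus follow in part from the choice. With the group mean also removed, over 12 libraries, r with Hspa5 was 0.75 for Creld2, 0.79 for Manf and 0.59 for Sdf2l1.

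Other genes of the pathway were followed in lists that do not hold the members. Their counts stand beside those of all genes tested, of which 29.4% rose and 27.4% fell in tumors against normal lung, 22.6% rose and 23.7% fell against tumor-bearing lung, and 48.5% were below 0 in tumor-bearing against normal lung. Of 20 further ER chaperones and folding enzymes, 14 rose and 0 fell in tumors against normal lung, with a median log2 fold change of 0.94, and 13 rose and 0 fell against tumor-bearing lung, with a median of 1.01. P4hb, the founding protein disulfide isomerase, had 1179 ± 382 CPM in tumors (SD, n = 3), 216 ± 48.7 CPM in tumor-bearing lungs (SD, n = 4) and 295 ± 17.8 CPM in batch 2 normal lungs (SD, n = 4). It rose by 2.00 (SE 0.21, edgeR adjusted p = 5.01e-05) against normal and by 2.30 (SE 0.29, edgeR adjusted p = 6.32e-05) against tumor-bearing lung. Ero1l, the oxidase that recharges these isomerases, rose by 1.86 and 1.93, Pdia6 by 1.03 and 1.25, Pdia3 by 1.00 and 1.29, and Erp29 by 1.37 and 1.46. In tumor-bearing against normal lung 16 of these 20 genes were below 0, with a median of -0.16, among them P4hb at -0.47, Pdia6 at -0.41 and Pdia3 at -0.38.

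Of 22 genes of the translocon and the early secretory pathway, which bring new proteins into and out of the ER, 16 rose and 0 fell in tumors in either comparison, with medians of 1.24 against normal and 1.29 against tumor-bearing lung. Lman1, a cargo receptor for export, had 109 ± 15.9 CPM in tumors (SD, n = 3), 42.4 ± 7.80 CPM in tumor-bearing lungs (SD, n = 4) and 35.2 ± 4.42 CPM in normal lungs (SD, n = 4). Ssr2, of the translocon-associated complex, rose by 1.94 and 2.00, and Sec11c and Spcs1, of the signal peptidase, by 1.58 and 1.40 against normal and by 1.76 and 1.87 against tumor-bearing lung. In tumor-bearing against normal lung 17 of the 22 were below 0, with a median of -0.22.

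Of 16 genes of ER-associated degradation 4 rose and 2 fell against normal lung, and 4 rose and 1 fell against tumor-bearing lung, with medians of 0.36 and 0.37. The share that rose was near that of all genes (29.4% and 22.6%) and the share that fell was below it (27.4% and 23.7%), so these counts are no result about the list. Herpud1, a membrane organiser of the degradation complex and a classical stress gene, fell in tumors, with 22.6 ± 2.03 CPM in tumors (SD, n = 3), 82.9 ± 5.95 CPM in tumor-bearing lungs (SD, n = 4) and 100.4 ± 9.78 CPM in normal lungs (SD, n = 4). Its log2 fold change was -2.14 (SE 0.15, edgeR adjusted p = 3.91e-06) against normal and -1.66 (SE 0.19, edgeR adjusted p = 2.76e-05) against tumor-bearing lung. Edem1, a lectin that picks misfolded glycoproteins, rose by 0.77 and 1.49, Edem2 by 0.87 and 0.53, and Aup1, which recruits a ubiquitin-conjugating enzyme to the complex, by 1.06 and 0.80. Herpud1 and Dnajb9 were thus both lower in tumors while Edem1, Edem2 and Aup1 were higher. In tumor-bearing against normal lung Herpud1 had -0.51 and Edem1 -0.68, and 8 of the 16 genes were below 0, a share near the 48.5% of all genes.

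The targets of ATF4 and CHOP spread the most. Of 24 genes 13 rose and 4 fell against normal lung, and 12 rose and 3 fell against tumor-bearing lung, with medians of 1.23 and 1.35. Psat1, an enzyme of serine synthesis, had 151 ± 30.9 CPM in tumors (SD, n = 3), 3.24 ± 1.32 CPM in tumor-bearing lungs (SD, n = 4) and 4.41 ± 1.3 CPM in normal lungs (SD, n = 4), and rose by 5.10 (SE 0.26, edgeR adjusted p = 8.70e-07) and 4.96 (SE 0.25, edgeR adjusted p = 6.25e-08). Trib3, a pseudokinase induced by ATF4 and CHOP, rose by 3.84 against normal and 4.38 against tumor-bearing lung, Phgdh, the first enzyme of serine synthesis, by 3.18 and 3.92, Asns, asparagine synthetase, by 2.90 and 3.20, and Nars, the asparaginyl-tRNA synthetase, by 1.87 and 1.95. These named genes rose in the same tumors in which Ddit3 had 3.67 to 9.46 CPM. Other genes of the list went the other way. Below 0 were 6 of the 24 against normal and 7 against tumor-bearing lung. Among them were Ppp1r15a (-2.2 and -2.12), Nupr1 (-1.1 and -1.06) and Atf5 (-0.76 and -0.89). Cycling genes were also higher in the tumors, as given above, and their part was not tested. In tumor-bearing against normal lung Psat1 had -0.11, Trib3 -0.32, Asns 0.01 and Phgdh -0.73.

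Among 12 sensors and regulators 4 rose and 2 fell against normal lung, and 1 rose and 1 fell against tumor-bearing lung. Among all genes 29.4% rose and 27.4% fell against normal lung, and 22.6% rose and 23.7% fell against tumor-bearing lung, so the counts of this list were near or below the background. Eif2s1, the alpha subunit of eIF2 that PERK phosphorylates, rose by 2.23 (SE 0.18, edgeR adjusted p = 1.01e-05) and 2.35 (SE 0.24, edgeR adjusted p = 1.27e-05). Ern1, which encodes IRE1, fell by 0.77 (edgeR adjusted p = 0.00759) and by 1.03 (edgeR adjusted p = 0.00426), with 17.5 ± 3.36 CPM in tumors (SD, n = 3), 45.2 ± 12.2 CPM in tumor-bearing lungs (SD, n = 4) and 30.0 ± 4.92 CPM in normal lungs (SD, n = 4). Atf6 fell by 0.58 against normal lung (edgeR adjusted p = 0.00436) and its relative Atf6b rose by 0.57 (edgeR adjusted p = 0.0157); against tumor-bearing lung Atf6 had -0.44 and Atf6b 0.28, neither called. The median over the 12 in tumor-bearing against normal lung was 0.07, and it lay below 0 in 6 alternatives, to -0.29 and -0.60 on the TPM scales.

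A list of 12 heat shock chaperones outside the ER, 2 of them, Hspd1 and Hspe1, the chaperonins of mitochondria, was kept beside the ER members. Against normal lung 3 rose and 7 fell in tumors, with a median of -0.80, and against tumor-bearing lung 5 rose and 1 fell, with a median of 0.42. Hspb1, a small heat shock protein, fell by 3.29 (SE 0.24, edgeR adjusted p = 5.06e-06) and by 1.94 (SE 0.26, edgeR adjusted p = 8.48e-05). Hspe1 rose by 2.27 and 3.10, Hspd1 by 1.62 and 2.51 and Hsp90ab1 by 0.80 and 1.67, while Dnaja1 fell by 1.27 against normal lung and had 0.14 against tumor-bearing lung. In tumor-bearing against normal lung all 12 were below 0, with a median of -1.15, which is further below 0 than the -0.67 of the ER members; within batches the medians were -1.33 and -0.90 for these 12 and -0.85 and -0.33 for the 10 members. This list, like the members, was chosen with earlier results of these data known, so its values in this contrast are a description. The difference between the 2 lists was not tested.

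**Figure D5:**
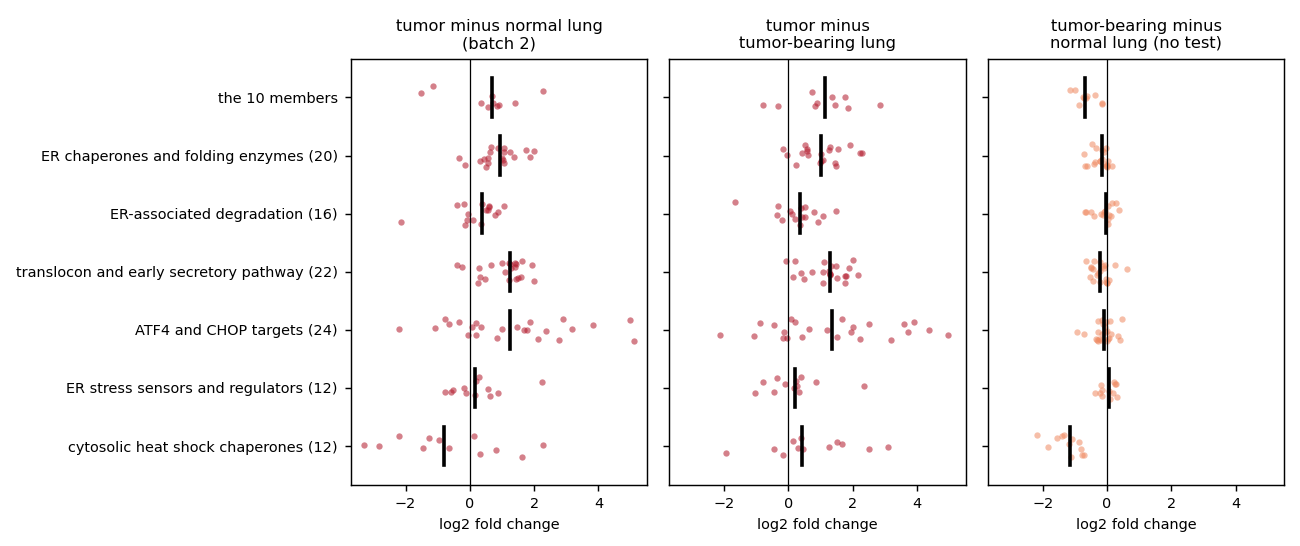
Log2 fold change (horizontal axis) of each gene of the 10 members and of 6 lists without them (rows, number of genes in brackets) in 3 comparisons; points are genes and black bars medians. In tumors the chaperone and translocon lists lie to the right (medians 0.94 and 1.24 against normal lung), and in tumor-bearing against normal lung the heat shock chaperones lie furthest left, at a median of -1.15.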

How the data were processed

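Bulk RNA of 3 mammary tumors, 4 tumor-bearing lungs and 4 normal mice, 2 of them prepared in both batches, gave 13 libraries. The deposited values are estimated counts and TPM per gene. Per the submitters' processing notes the tools were Salmon and DESeq2 1.18.1 and the build mm10, and per the labels' protocols the fragmentation step depended on RNA quality, which is not given per library. The deposited estimated counts equal TPM times gene length times a factor per library (largest log2 deviation 1.07e-14 over 12209 genes), so they hold no depth information beyond the TPM and that factor. Whether counting used the strand is not given in the sources used here.

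Estimated counts were rounded to whole numbers and fitted with edgeR 4.0.16 in R 4.3.3 (TMM, filterByExpr by group, glmQLFit, glmQLFTest, Benjamini-Hochberg over all genes tested, threshold 0.05). Gene names came from GENCODE M21 (46269 of 46679 IDs). Tumors were compared with normal lungs within batch 2, and with tumor-bearing lungs in 11 libraries with preparation batch as a term. Tumor-bearing against normal lung (8 lungs, batch term) chose the members and was given without a test. CPM are TMM-scaled. Levels between members used the deposited TPM rescaled to equal protein-coding totals, because Rn7s1 took 5.00 to 45.5% of TPM. Protein-coding genes held 1.77 to 6.99% of TPM. Alternatives used DESeq2 1.42.0, limma 3.58.1, other scalings and left-out libraries, and TPM fits took a pseudocount of 1 or 0.1. The fits were also run on simulated counts in which a small set of genes changed and no batch effect was put in. That setting is unlike these data, so it could not test the scaling or the batch term. Total estimated counts of 8321037 to 13982903 limit the precision of low genes such as Ddit3 and Sdf2l1.

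Tumor and lung of mice 6877, 6880 and 6881 come from the same animal, so the mouse pairs them. Their deviations from the group means correlated by 0.179, 0.0355 and -0.133. The members and lists were chosen with earlier results of these data known. Named genes were the members, up to 4 genes of each list and tested comparison with the smallest p among those called without overlap, and the 8 genes most like Hspa5 among genes whose mean log2 CPM reached 3. Promoter sequences are from RefSeq (GRCm38.p6).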

Additional observations from a re-analysis of the deposited data

How the results depend on the processing

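Against normal lung 9 members were called, and 7 to 10 when any 1 library was left out; 5 were called in limma fits of log2(TPM + 1) and 5 of log2(TPM + 0.1), where Hspa5, Manf, Atf4 and Hsp90b1 lost the call. Ddit3, Pdia4, Sdf2l1, Dnajb9 and Creld2 kept it in all 16 alternatives. In the main fits 56.8% of all genes were called against normal lung and 46.3% against tumor-bearing lung. For most alternatives the share of all genes called is not given here. A change in the count of called members is therefore no result about the members. Against tumor-bearing lung 9 members were called, and 5 to 9 when any 1 library was left out, with 5 without the lung of mouse 6877, an alternative with no tumor-bearing lung in batch 2. With log2(TPM + 1) 5322 genes were called, against 8471 in the count fit. Ddit3, not called, turned to 0.11 with log2(TPM + 1) and 0.07 with log2(TPM + 0.1); the cause was not tested. The replicate block, which pairs tumor and lung by mouse, called 7 members and changed no member's call but those of Hsp90b1 and Dnajb9. Hsp90b1 had 0.36 (adjusted p = 0.294) without the batch term and 0.91 (adjusted p = 0.0529) within batch 2. The scaling moved the median of all genes to 0.22 with log2(TPM + 0.1) and to -0.24 with upper-quartile factors against tumor-bearing lung, and to -0.16 with upper-quartile factors against normal lung. Between tumor-bearing and normal lung 9 or 10 members were below 0 in every alternative, Hsp90b1 being at 0.00 without the batch term. Depth limits the low members, such as Ddit3 with 47 to 92 estimated counts in tumors, and 1 tumor-bearing lung in batch 2 limits every value that separates batch from tumor.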
